A study of Mus musculus with 2 samples.

Results

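Dual-specificity phosphatases of the MAP kinase pathway were measured in eosinophils of mouse bone marrow. The family was taken by gene symbol and holds 10 members, Dusp1, Dusp2, Dusp3, Dusp4, Dusp5, Dusp6, Dusp7, Dusp8, Dusp10 and Dusp16, of 23343 genes in the tables. These members were picked with earlier results on the same libraries in view, so their levels are given as a description. The cells came from naive C57BL6J mice at homeostasis, with no treatment, transgene or second genotype. Eosinophils positive for CCR3 and SiglecF were sorted from pooled bone marrow, and polyadenylated RNA was sequenced from 2 independent sorts that form 1 group. No source used here states the age, the sex or the number of the pooled mice. Sex-linked RNA differed between the sorts, as given below.

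MAP kinases are switched on when an upstream kinase phosphorylates a threonine and a nearby tyrosine in their activation loop, and the phosphatases of this family switch them off by removing both phosphates. Most members carry, beside the catalytic domain, a domain that binds the kinase and sets which of the ERK, JNK and p38 kinases is served. Several are transcribed in response to the kinases that they inactivate and so form a negative feedback loop. In granulocytes the pathway carries signals from cytokine, chemoattractant and pattern recognition receptors.

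Sort 1 contributed 10087743 reads and sort 2 contributed 9264150. All 10 eosinophil markers in the tables were detected in both sorts, and detected means here an RPKM (a read count scaled to transcript length and depth) of at least 1. Their summed level was 2756 RPKM in sort 1 and 3544 in sort 2, with Ear1 and Prg2, both granule proteins, in the lead. All 12 markers listed for the late granule stage of neutrophils were detected too, summing to 4276 and 4004 RPKM and led by Retnlg and S100a9. The 6 markers listed for the primary granule stage, led by Mpo and Igsf6, summed to 345 and 432 RPKM. Of these 6, Igsf6, at 91.7 and 140 RPKM, and Ms4a3 encode membrane proteins and not granule proteins. No marker of these 3 lists was at 0 in either sort. Detected markers numbered 5 of 9 for monocytes and macrophages, led by Lyz2 and Ly6c2, 7 of 9 for basophils and mast cells, led by Cpa3 and Hdc, and 2 of 7 for B and plasma cells, led by Cd79b and Cd79a. They numbered 1 of 8 for T and NK cells, Nkg7, 1 of 9 for erythroid cells, Tfrc, and 2 of 7 for megakaryocytes, Itgb3 and Itga2b. How much of any phosphatase transcript came from cells other than eosinophils was not tested. In bulk samples fewer cells of a type and less RNA per cell cannot be told apart.

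A single member, Dusp1, made up nearly all of the family's transcript level. Of the 10 members, 4 were detected in both sorts, or 40.0%, against 30.2% of all genes. These were Dusp1, Dusp6, Dusp5 and Dusp7. By CPM, reads per 1000000 reads of the table with no scaling by length, 7 members reached at least 1 in both sorts, against 46.8% of all genes. In RPKM the 6 undetected members stayed at or below 0.330 RPKM in both sorts and together held 124 and 107 reads. The deposited RPKM was scaled by a divisor of 40.4 and 40.5, in units of 1000000 reads. The read totals of the tables were 10087743 and 9264150. An RPKM of 1 is therefore a stricter minimum here than it would be on the counted reads. Whether Dusp16, the highest of the undetected members by mean RPKM, would pass on the counted reads was not tested. The median over the members was 0.304 RPKM in sort 1 and 0.264 in sort 2, beside 0.108 and 0.0896 over all genes.

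**Figure D1:**
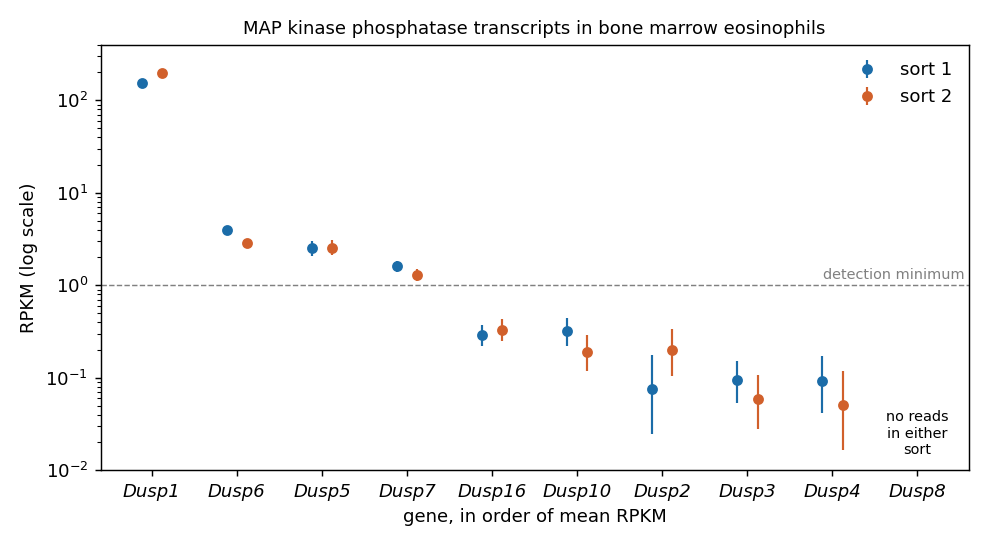
Level of each phosphatase in each sort, as deposited RPKM on a log axis, with genes on the horizontal axis in order of their mean. Points are single libraries and bars are exact Poisson 95% intervals, which cover counting error only. Dusp1 lies at 153 and 199 RPKM, Dusp6, Dusp5 and Dusp7 lie between 1.29 and 3.99, and 6 members lie below the dashed detection minimum.

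Dusp1 is the member known for rapid induction by stress, growth factors and glucocorticoids, and its nuclear protein acts on p38, JNK and ERK. Its gene lies on chromosome 17 from 26505591 to 26508472 on the minus strand (mm10). It had 12042 reads or 153 RPKM in sort 1 and 15724 reads or 199 RPKM in sort 2, a mean of 176 ± 32.7 RPKM (SD, n = 2). That placed it at rank 48 of 23343 genes in sort 1 and at rank 33 in sort 2. Dusp1 held 94.4% of the members' summed RPKM in sort 1 and 96.4% in sort 2. All other members together reached 9.0 and 7.5 RPKM.

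The distance to the next member, Dusp6, was 38.4-fold on the RPKM scale in sort 1 and 70.6-fold in sort 2. Both libraries thus put Dusp1 far above every other phosphatase of the family, although the size of the gap differed between them. The genes most like Dusp1 over the 2 libraries were Mpo at 161 and 173 RPKM, Itgb2 at 173 and 183 and Arpc2 at 178 and 202. Their distances on the log2(RPKM + 1) scale were 0.214, 0.214 and 0.219. With 2 libraries this measure says little beyond a like level.

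The region upstream of Dusp1 is shown beside that of Dusp8, the member without reads, and that of Dusp5, because these hold the full elements searched for. Each is the 250 bases before the RefSeq start site, on the strand of the gene, from RefSeq on GRCm38.p6. Capitals mark matches to TGACG on either strand, the core of the cyclic AMP response element, which lies within the longer element TGACGTCA, and in Dusp5 also the CArG box, the binding motif of serum response factor.
Dusp1, chr17:26508473-26508722, minus strand: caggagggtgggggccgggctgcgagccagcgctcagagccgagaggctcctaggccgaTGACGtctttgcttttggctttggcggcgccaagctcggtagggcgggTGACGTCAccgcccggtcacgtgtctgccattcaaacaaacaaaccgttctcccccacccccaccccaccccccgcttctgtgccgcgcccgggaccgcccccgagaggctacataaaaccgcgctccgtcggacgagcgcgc
Dusp8, chr7:142095285-142095534, minus strand: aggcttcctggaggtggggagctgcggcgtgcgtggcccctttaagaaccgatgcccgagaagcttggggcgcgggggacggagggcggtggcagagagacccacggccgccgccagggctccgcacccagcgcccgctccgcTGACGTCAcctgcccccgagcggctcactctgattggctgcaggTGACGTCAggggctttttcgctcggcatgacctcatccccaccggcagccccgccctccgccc
Dusp5, chr19:53528895-53529144, plus strand: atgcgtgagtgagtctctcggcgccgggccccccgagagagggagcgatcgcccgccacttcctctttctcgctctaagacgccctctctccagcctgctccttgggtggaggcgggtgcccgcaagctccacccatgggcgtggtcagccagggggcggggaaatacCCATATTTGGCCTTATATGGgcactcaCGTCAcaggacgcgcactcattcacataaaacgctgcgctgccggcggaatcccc

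Such upstream windows were matched for 9 of the 10 members, all but Dusp4. The full element TGACGTCA occurred once in the Dusp1 window and at 2 places in the Dusp8 window, and in no other member. It occurs in 1.55% of the 32851 upstream windows of this length. The core TGACG was found in 4 members, Dusp1, Dusp5, Dusp8 and Dusp16, and in 17.8% of all windows. The CArG box was found in 1 member, Dusp5, at 2 adjoining places, and in 1.47% of all windows. The member with the highest level and the member without reads therefore share the same letters, and the matches describe sequence only. The start site of Dusp5 in the deposited tables lies 173 bases inside the RefSeq start used for its window, and that of Dusp10 80 bases inside.

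The remaining nuclear members, Dusp2, Dusp4 and Dusp5, are likewise known as products of inducible genes. Dusp5, which acts on ERK, had 118 reads or 2.52 RPKM in sort 1 and 120 reads or 2.56 RPKM in sort 2. These values were the closest to each other among the detected members. The transcript length implied by the count and the RPKM of Dusp5 was 1158 bases, whereas the GENCODE transcript with the same accession has 2473, so the deposited value was counted over a shorter model. Dusp2, first known from activated lymphocytes, had 5 and 13 reads or 0.0763 and 0.198 RPKM. Dusp4 had 9 and 5 reads or 0.0916 and 0.0507 RPKM. The exact Poisson 95% intervals on Dusp2 ran from 0.0248 to 0.178 RPKM in sort 1 and from 0.105 to 0.338 in sort 2, so they overlap.

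Dusp6 and Dusp7 are cytoplasmic members with a preference for ERK. Dusp6, on chromosome 10 from 99263231 to 99267489, had 452 reads or 3.99 RPKM in sort 1 and 321 reads or 2.83 RPKM in sort 2. Dusp7, on chromosome 9 from 106368632 to 106375723, had 210 reads or 1.61 RPKM in sort 1 and 168 reads or 1.29 RPKM in sort 2. Both thus had the higher value in sort 1, and the Dusp6 value of either sort lay above both Dusp7 values. For Dusp7 the counting interval of the log2 ratio, -0.56 to 0.05, includes 0. Their closest relative Dusp9, which is not among the 10 members, had 1 and 3 reads.

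Dusp8, Dusp10 and Dusp16 act mainly on JNK and p38, and all 3 lay below the detection minimum. Dusp16 had 59 and 58 reads or 0.290 and 0.330 RPKM. Its row joined 2 transcripts, and the length implied by its RPKM was 5041 bases in sort 1 and 4336 in sort 2, so its level per length rests on how reads were split between them. Dusp10 had 35 and 21 reads or 0.319 and 0.191 RPKM. Dusp8 had no read in either library, which allows a CPM of up to 0.297 in sort 1 and 0.324 in sort 2 on a limit of 3 reads for counting error. Dusp3, a small phosphatase that lacks the kinase-binding domain of the others, had 16 and 10 reads or 0.0940 and 0.0586 RPKM.

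In order of mean RPKM the members ran Dusp1, Dusp6, Dusp5, Dusp7, Dusp16, Dusp10, Dusp2, Dusp3, Dusp4 and Dusp8. Of the 9 pairs of neighbours, 5 had values that did not overlap between members, namely the 4 pairs from Dusp1 down to Dusp16 and the pair of Dusp4 and Dusp8. The 4 pairs from Dusp16 to Dusp4 overlapped, so their order is not resolved by these libraries. Dusp6 exceeded Dusp5 by 1.58-fold in sort 1 and by 1.1-fold in sort 2, and the exact Poisson intervals of both genes overlap in sort 2. On the CPM scale, Dusp7 at 20.8 and 18.1 lay above Dusp5 at 11.7 and 13.0. On the deposited models, opposite-strand genes of GENCODE overlap Dusp3, Dusp5 and Dusp16. No source used here states the strand setting of the counting, so reads of these 3 members and their partners cannot be told apart.

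The sorts were then compared member by member. The exact binomial test, two-sided and on reads, set the libraries against sampling noise and compared no conditions. Of the 10 members, 9 had the 10 reads needed. None met both limits, an adjusted p below 0.05 and at least a 2-fold difference, which 7.95% of the 12347 tested genes met. At an unadjusted binomial p under 0.05, 2 of the 9 members passed, Dusp1 and Dusp6, against 50.5% of all tested genes. With edgeR's exact test and the dispersion estimated from both libraries, 0 members were called, against 0.267% of all tested genes. In that test 0 members had an unadjusted p under 0.05, against 6.20%. That dispersion counts the difference between the sorts as noise, so few calls could arise. Here and below, edgeR's test therefore cannot tell whether a gene differs between the sorts.

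Dusp1 and Dusp6 moved in opposite directions by less than 2-fold. Dusp1 was 1.37-fold higher in sort 2, a log2 ratio of 0.45 (counting interval 0.42 to 0.49), with a Benjamini-Hochberg adjusted p of 4.87e-147 in the exact binomial test. Dusp6 was 1.34-fold higher in sort 1, a log2 ratio of -0.42 (counting interval -0.64 to -0.22), with an adjusted p of 0.000249 in the same exact test. Adjusted p-values under 0.05 at any fold were reached by 44.4% of tested genes, 22.8% higher and 21.6% lower in sort 2. The 2 of 9 members lie below that share, but passing depends on read depth. Dusp16, Dusp10, Dusp2, Dusp3 and Dusp4 had at most 59 reads in either sort. The unadjusted p of edgeR's exact test was 0.341 for Dusp1 and 0.386 for Dusp6.

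The other 7 tested members had log2 ratios from -0.62 for Dusp10 to 1.15 for Dusp2, and adjusted p-values of the exact binomial test from 0.113 upward. For Dusp2 the counting interval ran from -0.13 to 3.29, which leaves its ratio poorly known at this depth. Ratios were above 0 for 4 members and below 0 for 5, with a median of -0.25 beside 0.00 over all tested genes. Ratios between these libraries fell with the GC content of the transcript, with a Spearman correlation of -0.54 across 8680 genes of at least 100 reads. Genes share the libraries and are not independent replicates. At the GC content of Dusp1, 54.9%, that trend stood at -0.20, and its ratio was 0.65 once the trend was removed. At the GC content of Dusp6, 49.0%, the trend stood at 0.04 and the ratio became -0.46. The libraries also differed in sex-linked RNA, with 47487 and 5 reads of Xist and 0 and 745 reads of the Y-linked Ddx3y. By these reads sort 1 was female and sort 2 male, so sex and sort cannot be told apart in these libraries. The ribosomal RNA precursor Rn45s took 9.07% and 0.963% of the reads. The part of these differences in the ratios of the phosphatases was not tested.

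**Figure D2:**
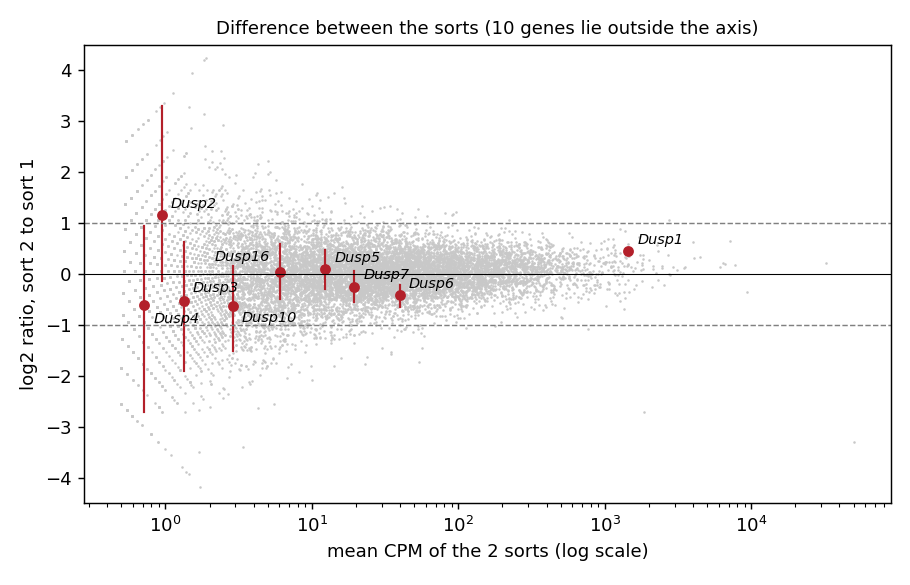
Log2 ratio of sort 2 to sort 1 against the mean CPM on a log axis, for all tested genes in grey and for 9 phosphatases in red with exact 95% counting intervals. Dashed lines mark a 2-fold difference, and Dusp1 at 0.45 and Dusp6 at -0.42 are the members whose intervals exclude 0.

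The phosphatases were next set beside the rest of the pathway, in 9 lists of 119 genes. Of these genes 68 were detected in both sorts, or 57.1%, against 30.2% of all genes, with medians of 2.00 and 1.81 RPKM. Only Zfp36, which encodes a protein that destabilises AU-rich messenger RNAs, had a higher mean level than Dusp1 among them.

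Among the MAP kinases 8 of 14 were detected, with medians of 1.52 and 1.39 RPKM. Mapk3, an ERK, had 42.1 and 37.3 RPKM, and Mapk14, the alpha form of p38, had 35.5 and 38.8. Nlk, an atypical member, had 7.15 and 9.13 RPKM. The JNK genes Mapk9, with 2.22 and 2.05 RPKM, and Mapk8, with 1.15 and 1.47, lay lower. Dusp1 thus had a higher level per length than each of these kinases, while Dusp6 and Dusp7 lay below Mapk3.

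Upstream kinases were broadly present. Of the MAP2 kinases 6 of 7 were detected, with medians of 5.34 and 5.53 RPKM. They were led by Map2k7 at 9.32 and 6.80, Map2k4 at 8.12 and 7.84, which both activate JNK, Map2k3 at 6.98 and 5.53, an activator of p38, and Map2k1 at 5.34 and 6.97, an activator of ERK. Of 22 MAP3 kinases 17 were detected, with medians of 4.01 and 3.51, led by Braf at 19.2 and 22.6, Taok3 at 16.0 and 13.3 and Map3k3 at 9.98 and 7.81 RPKM. Scaffolds were detected in 7 of 11 cases, at medians of 2.59 and 2.53, and included Tab2 at 32.1 and 42.3, Arrb2 at 23.4 and 22.1, Arrb1 at 11.8 and 9.97 and Lamtor3 at 6.16 and 4.87 RPKM.

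Of the kinases that MAP kinases activate, 9 of 11 were detected, at medians of 3.41 and 3.09 RPKM. Rps6ka1, a substrate kinase of ERK, had 31.8 and 21.4 RPKM, Rps6ka3 17.0 and 20.0, Mapkapk3, a substrate kinase of p38, 14.6 and 14.9, and Mknk1 8.04 and 9.86. Among immediate early genes 12 of 20 were detected, and their medians were 2.49 and 1.59. Zfp36 had 262 and 226 RPKM, Btg2 52.4 and 51.4, Fosl2 22.9 and 14.4, and Ier5 17.5 and 17.0. Fos, which like Dusp1 is known as a fast response to MAP kinase signals, had 14.5 and 19.2 RPKM. Dusp1 exceeded Fos 10.6-fold in sort 1 and 10.4-fold in sort 2, and it exceeded Egr1, at 4.12 and 1.65 RPKM, 37.1-fold and 121-fold.

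Other negative regulators fell into groups of unlike level. Phosphatases of MAP kinases outside the dual-specificity family were detected in 6 of 8 cases, at medians of 6.20 and 7.54 RPKM. They were led by Ptpn7, a tyrosine phosphatase of blood cells that binds MAP kinases, at 18.2 and 20.9. Behind it came the catalytic subunits of protein phosphatase 2A, Ppp2ca at 11.4 and 13.3 and Ppp2cb at 9.29 and 11.3, and Ppm1b at 7.28 and 9.81 RPKM. Each of these 4 lay above Dusp6, the next member after Dusp1, in both sorts. Of 16 further dual-specificity phosphatases and their catalytically inactive relatives 1 was detected in both sorts, with medians of 0.0726 and 0.0489. This was Dusp11, an RNA phosphatase, at 10.3 and 10.5 RPKM. Dusp23 followed with 1.05 and 0.660, so 2 were detected without sort 2, and 6 reached a CPM of at least 1 in both sorts. Next came Dusp28 with 0.414 and 0.446 and Dusp19 with 0.253 and 0.337 RPKM. The Sprouty, SPRED and other inhibitors of the ERK pathway had 2 of 10 detected and medians of 0.0643 and 0.0427. These were Spred2 at 3.08 and 2.72 and Pebp1 at 1.48 and 1.5 RPKM, followed by Spred1 at 0.438 and 0.657 and Spry2 at 0.331 and 0.330.

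**Figure D3:**
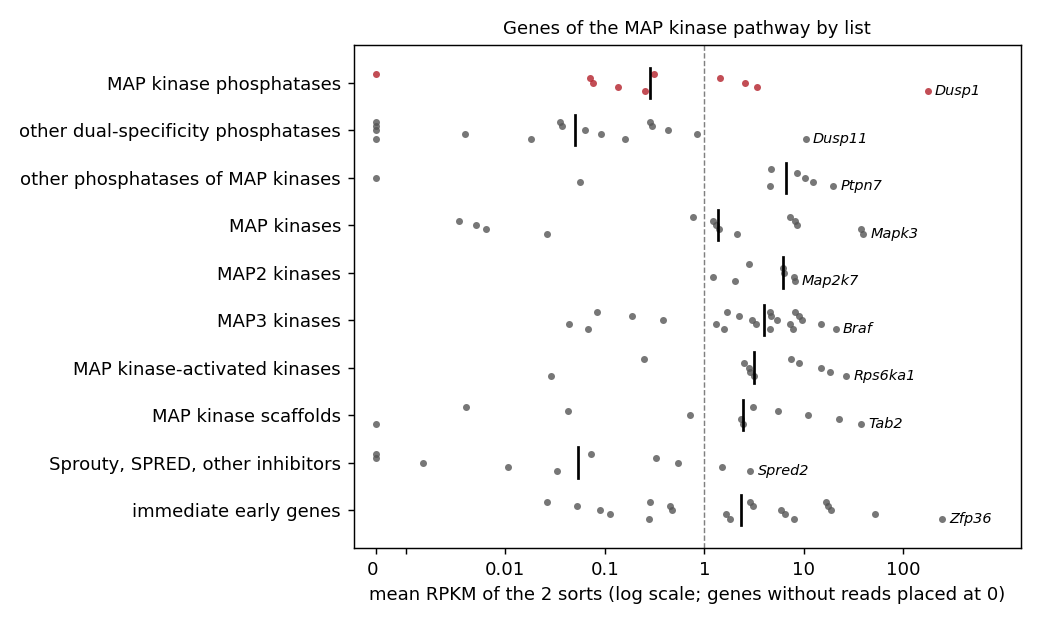
Mean RPKM of the 2 sorts on a log axis for each gene of the phosphatase family in red and of 9 pathway lists in grey, 1 point per gene. Black bars are list medians, the dashed line is an RPKM of 1, genes without reads are placed at 0, and the highest gene of each list is named. Dusp1 lies at 176 RPKM with the other members at or below 3.41, whereas most lists of kinases spread around medians above 1.

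Between the sorts 5 of 96 tested pathway genes met the same limits in the exact binomial test, adjusted after Benjamini and Hochberg. They were 3 higher in sort 2, where 3.05% of all tested genes were called, and 2 lower, where 4.90% were. Higher in sort 2 were Map2k6, an activator of p38, by 2.99-fold with 52 and 152 reads, and Map3k13 by 2.60-fold with 6 and 18 reads. The phosphatase Ptprr, with 0 and 10 reads, was also higher in sort 2, by 3.49-fold. Lower in sort 2 were Egr1 by 2.36-fold with 513 and 206 reads and Fosl1 by 3.82-fold with 12 and 0 reads. For Ptprr and Fosl1 the library without reads was set to 3 reads. The other count was taken as exact, so these 2 folds are not lower limits. The exact test of edgeR called 0 of the 96, with 4 at an unadjusted p under 0.05, against 6.20% of all tested genes.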

How the data were processed

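Polyadenylated RNA of 2 sorts of bone marrow eosinophils was sequenced as stranded dUTP libraries, per the labels' protocols. Reads were aligned with STAR 2.4.0c to mm10, per the submitters' processing notes, and no source used here names the counting program. The authors deposited raw read counts and RPKM values, 1 row for RefSeq transcripts of equal start and end. RPKM implied a divisor of 40.4 and 40.5, in units of 1000000 reads, above each table's total. Counts and RPKM were summed per gene symbol, and each member had 1 row. No label says which mice a sort came from, and p-values measure only the difference between libraries.

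Ratios used TMM scaling (edgeR 4.0.16) and a prior count of 2. The exact binomial test (scipy 1.17.1) was adjusted over genes with at least 10 reads and tested on simulated data. The simulated counts held sampling noise only, as the test assumes, so they say nothing about further variation between the libraries. DESeq2 1.42.0 size factors and edgeR's exact test were alternatives. The quasi-likelihood test could not be used, since each sort has 1 library, which leaves no variation within a sort to estimate. GC content and lengths came from GENCODE M21 by RefSeq accession, for all 10 members. Members, lists and tests were chosen with earlier results of these data known. Named genes were all members, the 4 highest and any called gene of each pathway list, the 2 highest of each marker list, and the 3 genes nearest to Dusp1; Fos, Mapk8, Mapk9, Dusp9, Xist, Ddx3y and Rn45s were named after their values were seen. Of the genes this rule takes, some are not reported here. Without molecular identifiers, reads are not independent molecules, so all intervals cover counting error only.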

Additional observations from a re-analysis of the deposited data

How the results depend on the processing

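The count of detected members stayed at 4 with a minimum of 0.5 RPKM and was 3 with 2 RPKM, but it was 1, Dusp1, with 5 RPKM and 7 with a CPM of at least 1 in both sorts, where 46.8% of all genes passed. Leaving out either sort gave 4. Of the detected counts of the 9 pathway lists under other minimums or without a sort, chosen after seeing the data, 44 stayed within 1.5 times and 10 did not, 5 of them at 5 RPKM; the Sprouty and SPRED list had 1 at 2 RPKM, 0 at 5 RPKM and 4 by CPM in place of 2, and the further dual-specificity list had 2, at 0.5 RPKM or without sort 2, and 6 by CPM in place of 1. Of the 10 members, 6 kept their place in the order when CPM replaced RPKM, and 5 to 8 did so when either sort was left out; Dusp1 led and Dusp6 came next in each. Dusp1 held 94.4 to 96.4% of the summed RPKM with either sort left out. No member was called between the sorts in 7 of 8 alternatives, while dropping the fold limit gave 2. Among the 7, edgeR's exact test took the difference between the sorts as noise. Removing the GC trend changed the ratios only and kept the p-values of the uncorrected counts. The minimum of 50 reads dropped Dusp2, Dusp3 and Dusp4 before any test. With the GC trend removed, an alternative chosen after seeing the data, the log2 ratio of Dusp7 turned from -0.25 to 0.05 and that of Dusp16 from 0.04 to -0.08, since the trend at their GC content, -0.30 and 0.12, was larger than their ratios. The other 52 ratios under alternatives kept their sign. Members with few reads, Dusp2, Dusp3 and Dusp4, are limited by depth. No paired analysis was possible because both libraries belong to 1 group.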
